A study of Mus musculus with 6 samples.

Results

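Beta-catenin (Ctnnb1), the core of its destruction complex and its partners on DNA were followed in mouse liver through 10 genes, out of 54446 in the deposited table. The genes are a list of names with no threshold on their values, drawn up with earlier results of these data known: Ctnnb1 itself, the scaffold genes Apc, Axin1 and Amer1, the kinase genes Gsk3b and Csnk1a1, the ubiquitin ligase subunit gene Btrc, the TCF genes Tcf7l1 and Tcf7l2, and the co-activator gene Bcl9. All 10 were found in the table and all 10 passed the filter on low counts. Poly-A RNA was sequenced from liver cells at weeks 0, 2 and 7 of treatment with MET/CAT and SB transposase, with 2 libraries per week. A transposase inserts a DNA cassette that carries its terminal repeats into the genome, and the labels do not expand CAT. They give neither the promoter of an introduced gene nor the age of the mice, and do not say that libraries came from separate animals, so p-values measure the spread between these libraries only. The label of week 0 replicate 1 gives a mixed background of FVB/N and C57BL/6. In the labels of the other libraries the number after C57BL/ runs from 8 to 16 in steps of 2, so their background is unsure. No untreated mice at weeks 2 and 7 were analysed, so treatment cannot be told apart from time.

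Beta-catenin has a pair of pools in epithelial cells. At the membrane it links cadherins to alpha-catenin and the actin cytoskeleton. In the cytosol it is held by the scaffolds Apc and Axin, phosphorylated first by casein kinase 1 alpha and then by Gsk3, recognised by Btrc (beta-TrCP) and degraded by the proteasome. When Wnt binds its receptors this degradation stops, and beta-catenin enters the nucleus, where it joins TCF/LEF factors on DNA and recruits Bcl9 and Pygopus. Much of this control acts on protein, which was not measured here. In liver the pathway is known for the gene program of hepatocytes around the central vein, and activating Ctnnb1 mutations are common in liver tumours.

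Library totals ran from 49353453 to 58434358 deposited counts, and a read pair was worth about 4 of them. Levels are given as TMM-scaled CPM (counts relative to 1e6 counts of library size), and a difference was called at an adjusted p under 0.05 in edgeR's quasi-likelihood test over 15368 genes. The week 2 libraries had 13236 and 12804 counts of Xist, the RNA that silences an X chromosome in female cells, whereas the 4 other libraries had at most 15. Ddx3y, on the Y chromosome, had 0 counts at week 2 and between 1897 and 2303 in the 4 other libraries. Week 2 therefore differs from the other weeks in time and in sex, which cannot be told apart. Marker genes of other liver cells also moved. Beside the counts that follow, 7.58% of all tested genes were called higher and 6.23% lower at week 7 than at week 0. At week 2 against week 0 these shares were 9.81% and 8.81%. Kupffer cell markers summed to 314 to 319 CPM at week 0, 424 to 429 CPM at week 2 and 229.5 to 229.8 CPM at week 7, with 5 of 5 lower at week 7 than at week 0. Stellate cell markers summed to 193 to 199 CPM at week 0, 300.5 to 303 CPM at week 2 and 140 to 147 CPM at week 7, with 1 of 7 higher and 4 lower at week 7 than at week 0. Endothelial markers summed to 223 to 238 CPM at week 0, 278 to 284 CPM at week 2 and 206 to 213 CPM at week 7, with 1 of 6 lower at week 7 than at week 0. The hepatocyte markers summed to 86315 to 86758 CPM at week 0, 106976 to 113102 CPM at week 2 and 74057 to 74388 CPM at week 7, with 2 of 5 lower at week 7 than at week 0. At week 2 against week 0, Asgr1 and Alb were called higher but Apoa1, Ttr and Hnf4a lower, with a list median of -0.11 on the log2 scale. Macrophage markers summed to 155 to 159 CPM at week 0, 249 to 252 CPM at week 2 and 129.9 to 135 CPM at week 7, with 2 of 5 lower at week 7 than at week 0. Cholangiocyte markers summed to 19.3 to 19.7 CPM at week 0, 30.3 to 36.8 CPM at week 2 and 19.0 to 19.5 CPM at week 7. At week 7 against week 0, 1 of the 5 had a log2 difference above 0, and the list median was -0.33. At week 2 against week 0, 3 of the 5 were above 0, with a median of 0.34. Krt19, a keratin of bile duct cells, was the only 1 called at week 7 against week 0. At week 2 against week 0, Krt19 and Spp1 were called higher. The log2 differences of Krt19 from week 0 were 3.16 at week 7 and 3.34 at week 2 (edgeR adjusted p = 0.00110 and 0.000464). Of the defining markers listed, Ly6g of neutrophils was at 0 in every library. The part of these shifts in the results that follow was not tested, and in bulk RNA fewer cells of a type cannot be told apart from less RNA per cell.

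Ctnnb1 was the only member called in any comparison. It had 116 and 104 CPM at week 0, 127 and 119.7 CPM at week 2, and 201 and 163 CPM at week 7. Both week 7 libraries lay above all 4 earlier ones, and the week 2 values lay just above those of week 0. The means were 182 ± 26.7 CPM at week 7 and 110.3 ± 8.33 CPM at week 0 (SD, n = 2 each), a 1.65-fold difference. On the log2 scale the difference was 0.72 (SE 0.11, 95% interval 0.47 to 0.98, edgeR adjusted p = 0.00682). Against the week 2 mean of 123 ± 5.03 CPM (SD, n = 2) the week 7 mean was 1.48-fold higher (log2 0.56, 95% interval 0.31 to 0.82, edgeR adjusted p = 0.0126). The call against week 2 was lost without week 2 replicate 1 (edgeR adjusted p = 0.0609) or replicate 2 (edgeR adjusted p = 0.0926), whereas the call against week 0 held without each library in turn. Week 2 against week 0 gave a log2 difference of 0.16 with an interval of -0.09 to 0.42 (edgeR adjusted p = 0.371), so a rise of up to 1.33-fold is within the error. The deposited counts behind Ctnnb1 ran from 5036 to 10851 per library. Whether an introduced gene carries Ctnnb1 sequence is not given by the labels. If one does, the table does not separate that sequence from mouse Ctnnb1, and any share of it in the week 7 counts cannot be told apart.

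The other 9 members passed no test between weeks. At week 7 against week 0, 1 of 10 members was called, against 13.8% of all tested genes (7.58% higher and 6.23% lower). The members' median log2 difference was 0.38, against a median over all tested genes of 0.00. Above 0 were 9 of 10 members, against 7700 of the 15368 tested genes. Of these members, Axin1, Gsk3b, Csnk1a1 and Tcf7l1 fell below 0 when certain single libraries were left out. At week 2 against week 0, 0 of 10 were called, against 18.6% of all tested genes (9.81% higher and 8.81% lower). An unadjusted edgeR p under 0.05 was reached by 2 of 10 members, against 4779 of the 15368 tested genes. Both DESeq2 and limma voom called 0 members in this comparison. The members' median there was 0.20. Between weeks 7 and 2, 1 of 10 was called, against 19.8% of all tested genes (10.1% higher and 9.73% lower), and the members' median was 0.11. A test of any difference over the 3 weeks also called 1 member, against 26.4% of all genes.

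**Figure D1:**
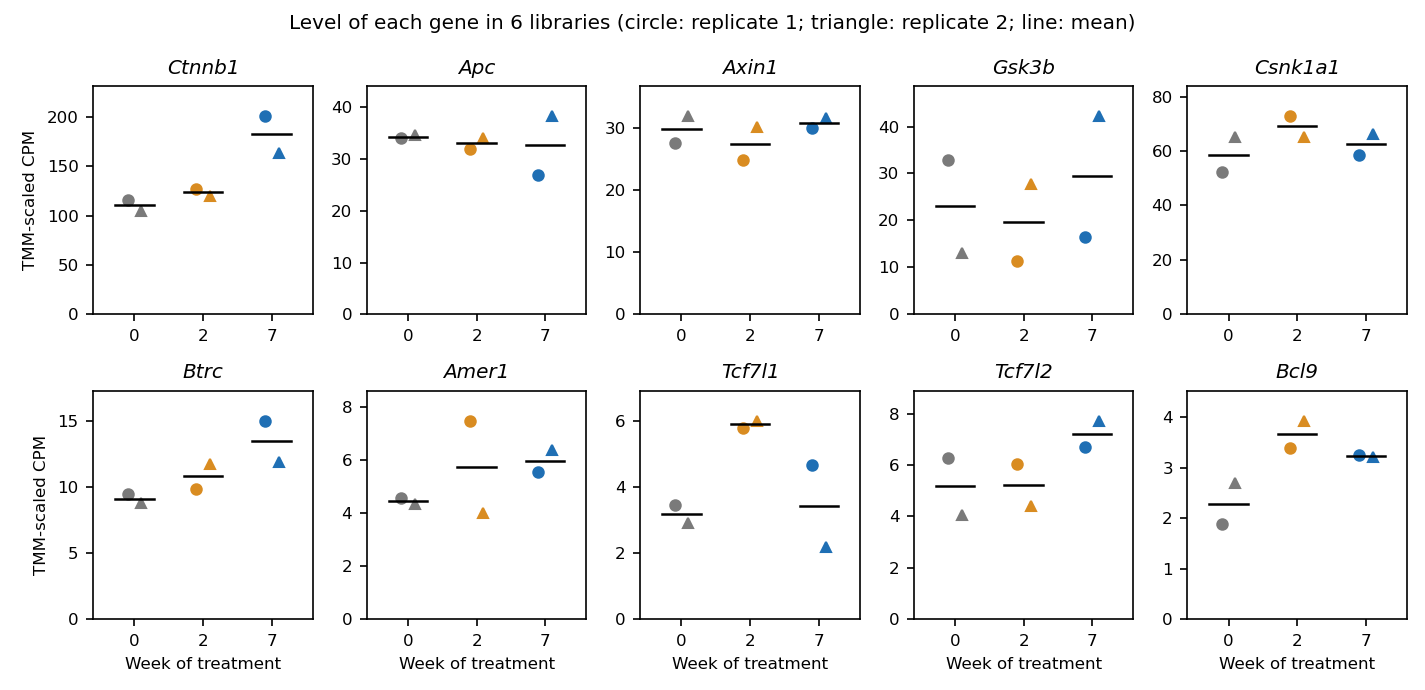
Levels of the 10 genes in TMM-scaled CPM on a separate vertical axis per gene, by week of treatment on the horizontal axis. Circles are replicate 1, triangles replicate 2 and lines the means of 2 libraries. Ctnnb1 at week 7 lies above all earlier values, at 163 and 201 CPM, while the replicates of Gsk3b lie far apart in every week.

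The promoter of Ctnnb1 is shown because the results turn on this gene, and that of Sp5 for contrast, as a Wnt target gene chosen after its values were seen. Each sequence is the 250 bases before a RefSeq start site, read from the RefSeq promoter table on build GRCm38.p6, and both lie on the plus strand. The Ctnnb1 window is chr9:120933150-120933399, before the upstream one of its start sites in that table, and the Sp5 window is chr2:70474673-70474922. Capitals mark a TCF/LEF motif, for which both strands of each window were searched with CTTTGAT and CTTTGAA.
Ctnnb1: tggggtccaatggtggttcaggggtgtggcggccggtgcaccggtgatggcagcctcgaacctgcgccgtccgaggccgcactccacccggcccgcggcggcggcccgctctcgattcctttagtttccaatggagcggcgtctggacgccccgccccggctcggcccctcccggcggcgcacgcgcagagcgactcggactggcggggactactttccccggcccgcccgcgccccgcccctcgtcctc
Sp5: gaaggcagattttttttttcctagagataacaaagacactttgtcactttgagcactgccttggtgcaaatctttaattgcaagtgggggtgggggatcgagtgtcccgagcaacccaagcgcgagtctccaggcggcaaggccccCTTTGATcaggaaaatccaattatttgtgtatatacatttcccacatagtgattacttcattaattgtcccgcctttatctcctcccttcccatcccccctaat
The Ctnnb1 window is 74.8% G and C and holds neither motif, and the Sp5 window is 46.0% G and C and holds CTTTGAT once. Of 32851 windows in the table, 3.21% held CTTTGAT, 4.46% held CTTTGAA and 7.48% held either. The table had windows for 5 of the 10 genes, Ctnnb1, Gsk3b, Tcf7l1, Tcf7l2 and Bcl9, and 0 of these 5 held a motif. Of 7 Wnt target genes with a window, 4 held one, namely Sp5, Slc1a2, Cyp2e1 and Cyp1a2, while Glul, Nkd1 and Axin2 did not. Of 3 partner genes with windows, Lef1, Tcf7 and Jup, 0 held one. Sp5, a transcription factor gene, had 0.321 and 0.746 CPM at week 0, 4.50 and 4.90 CPM at week 2, and 5.11 and 4.22 CPM at week 7 (edgeR adjusted p = 0.000808 for week 7 against week 0). These letters describe the windows and are neither sites nor causes.

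No scaffold gene was called in any comparison. Apc, a large tumour suppressor that helps hold beta-catenin in the complex, had 34.1 and 34.6 CPM at week 0, 31.9 and 34.2 CPM at week 2, and 26.9 and 38.4 CPM at week 7. The week 7 libraries lay on either side of all the others. Its log2 difference of week 7 against week 0 was -0.07 (95% interval -0.43 to 0.28, edgeR adjusted p = 0.830). Axin1, the scaffold that brings the kinases to beta-catenin, had 27.6 and 32.0 CPM at week 0, 24.8 and 30.1 CPM at week 2, and 29.9 and 31.6 CPM at week 7, and the groups overlapped. Its log2 difference was 0.05 at week 7 against week 0, with an interval of -0.23 to 0.32, which is a range of 0.854-fold to 1.25-fold (edgeR adjusted p = 0.863). Amer1 (WTX), an X-linked gene for a membrane protein that recruits Apc, had 4.59 and 4.35 CPM at week 0, 7.50 and 4.02 CPM at week 2, and 5.56 and 6.40 CPM at week 7. Both week 7 values of Amer1 were above both week 0 values, while the week 2 replicates lay on either side of all other libraries. The interval of its week 7 against week 0 difference was wide, -0.23 to 1.07 on the log2 scale around 0.42 (edgeR adjusted p = 0.405).

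Neither kinase gene was called, and their replicates differed in spread. Csnk1a1, casein kinase 1 alpha, which primes beta-catenin for Gsk3, had 52.3 and 65.1 CPM at week 0, 73.0 and 65.2 CPM at week 2, and 58.6 and 66.3 CPM at week 7. Both week 2 values lay above both of week 0, though the nearest of them, 65.2 and 65.1 CPM, almost met, and the log2 difference was 0.24 with an interval of -0.03 to 0.51 (edgeR adjusted p = 0.218). The week 7 against week 0 difference was 0.09 with an interval of -0.18 to 0.36 (edgeR adjusted p = 0.705). Gsk3b, the kinase that marks beta-catenin for Btrc, had 33.0 and 13.1 CPM at week 0, 11.4 and 27.8 CPM at week 2, and 16.4 and 42.3 CPM at week 7. The replicates stood 2.51-fold apart at week 0, 2.45-fold at week 2 and 2.57-fold at week 7, so the groups overlapped throughout. The 95% interval of Gsk3b at week 7 against week 0 ran from -2.39 to 3.08 on the log2 scale (edgeR adjusted p = 0.872), which holds falls and rises of several-fold. Its counts ran from 634 to 2162 per library, beside 1376 to 1782 for Axin1, whose interval was far narrower.

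Btrc, which recognises phosphorylated beta-catenin for the ubiquitin ligase, had 9.44 and 8.77 CPM at week 0, 9.86 and 11.7 CPM at week 2, and 15.0 and 11.9 CPM at week 7. Each week's pair of values lay above that of the week before. At week 7 against week 0 the log2 difference was 0.56 (SE 0.17, 95% interval 0.18 to 0.94, unadjusted p = 0.00883 in edgeR) and the edgeR adjusted p was 0.0592, which missed the threshold. It passed under 4 other settings, among them DESeq2 (DESeq2 adjusted p = 0.0361) and edgeR without the filter on low counts (adjusted p = 0.0401).

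The TCF and BCL9 members passed no test. Tcf7l1 (TCF3), known mainly as a repressor of Wnt targets in the absence of beta-catenin, had 3.47 and 2.92 CPM at week 0, 5.79 and 6.01 CPM at week 2, and 4.67 and 2.17 CPM at week 7. Both week 2 values lay above all others, and the week 7 replicates stood 2.15-fold apart. The log2 difference of week 2 against week 0 was 0.88 (95% interval 0.12 to 1.65, edgeR adjusted p = 0.108), and that of week 7 against week 2 was -0.78 (95% interval -1.54 to -0.02, edgeR adjusted p = 0.143). Both passed in edgeR without week 7 replicate 1, with adjusted p = 0.0306 and 0.0162. Tcf7l2 (TCF4), the TCF factor known for metabolic control in liver, had 6.27 and 4.06 CPM at week 0, 6.04 and 4.41 CPM at week 2, and 6.69 and 7.73 CPM at week 7. Both week 7 values were the highest of the 6, with a log2 difference from week 0 of 0.48 and an interval of -0.11 to 1.07 (edgeR adjusted p = 0.278). Bcl9, which bridges beta-catenin to Pygopus, had 1.88 and 2.70 CPM at week 0, 3.39 and 3.93 CPM at week 2, and 3.26 and 3.21 CPM at week 7. All 4 later libraries lay above both of week 0, with log2 differences of 0.68 at week 2 (95% interval 0.07 to 1.28, edgeR adjusted p = 0.119) and 0.50 at week 7 (95% interval -0.11 to 1.11, edgeR adjusted p = 0.275).

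Groups without overlap were no more frequent among the members than among all genes. Between weeks 7 and 0 the groups did not overlap for 5 of 10 members, all higher at week 7, against 56% of all tested genes. Between weeks 2 and 0 it was again 5 of 10, all higher at week 2, against 60.2% of all tested genes. Between weeks 7 and 2, 3 members were higher and 2 lower at week 7 without overlap, against 61% of all tested genes.

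**Figure D2:**
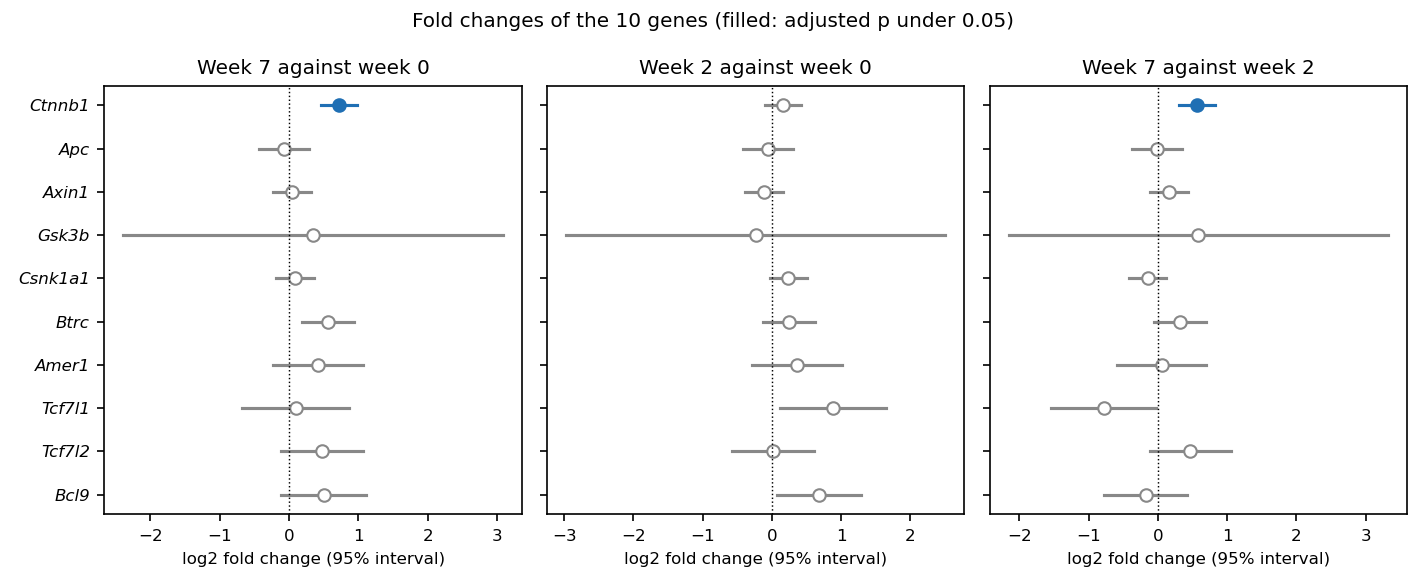
Log2 fold changes of the 10 genes with 95% intervals from the edgeR fit, for week 7 against week 0, week 2 against week 0 and week 7 against week 2, each panel on its own axis. Filled points are called at an adjusted p under 0.05. The intervals of Ctnnb1 lie above 0 in both comparisons of week 7, and that of Gsk3b spans -2.39 to 3.08 at week 7 against week 0.

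Per length, Ctnnb1 stood apart from the other members in every week. Levels in CPM per kilobase of annotated exon (GENCODE M21) averaged 21.2 at week 0, 23.7 at week 2 and 35.1 at week 7 for Ctnnb1. Axin1 followed with 7.77, 7.17 and 8.03 CPM per kilobase at weeks 0, 2 and 7, and Csnk1a1 with 5.59, 6.58 and 5.95, and the replicates of this pair overlapped at week 2. Gsk3b averaged 2.34, 1.99 and 2.99 CPM per kilobase and Apc 2.13, 2.05 and 2.03, and this pair did not differ beyond the replicate spread of Gsk3b. At week 0 the replicates of Tcf7l2, Btrc and Amer1 overlapped among themselves. The TCF genes, Btrc, Amer1 and Bcl9 lay below Apc, down to 0.271, 0.433 and 0.383 CPM per kilobase for Bcl9. The order depended on the length used. By the longest coding transcript Csnk1a1, at 14.4, 16.9 and 15.3 CPM per kilobase, passed Axin1, and Btrc came next after Axin1, since its annotated exons cover 16908 bases and its longest coding transcript 3037.

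Paralogues of Axin1, the TCF members and Bcl9 were called higher at weeks 2 and 7 than at week 0. These members themselves were not called, though Bcl9 had a fold like that of its paralogue at week 2. Axin2, the Axin whose gene is itself a Wnt target and acts as feedback, had 3.45 and 4.31 CPM at week 0, 14.9 and 18.1 CPM at week 2, and 18.9 and 15.1 CPM at week 7. It was 4.38-fold higher at week 7 than at week 0 (edgeR adjusted p = 0.000155) and 4.25-fold higher at week 2 than at week 0 (edgeR adjusted p = 8.11e-05). Per kilobase, Axin2 stood at 0.0869 and 0.0938 of the level of Axin1 at week 0, 0.418 and 0.418 of it in the week 2 libraries, and 0.439 and 0.333 of it in those of week 7. Axin1 thus stayed the more abundant Axin in each library.

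Among the TCF/LEF factors, Tcf7 (TCF1) and Lef1 rose. Tcf7 had 1.36 and 2.80 CPM at week 0, 9.32 and 8.27 CPM at week 2, and 10.1 and 12.6 CPM at week 7, and was 5.47-fold higher at week 7 than at week 0 (edgeR adjusted p = 0.002) and 4.23-fold higher at week 2 (edgeR adjusted p = 0.00285). Lef1 had 4 and 0 counts at week 0, 66 and 56 counts at week 2, and 169 and 130 counts at week 7. The counts at week 0 were under the floor of 12 counts, so no fold is given, and both later weeks were called against it (edgeR adjusted p = 0.00127 at week 7 and 0.00377 at week 2, the second lost in limma voom at 0.0801). Of the summed CPM per kilobase of the 4 factor genes, Tcf7 and Lef1 together held 24.8% and 46.9% at week 0, 63.0% and 61.6% in the week 2 libraries, and 68.4% and 78.1% in those of week 7. The sum itself averaged 2.20 CPM per kilobase at week 0, 5.57 at week 2 and 6.35 at week 7. The share of Tcf7l1 was 41.5% and 32.8% at week 0, 25.3% and 28.9% in the week 2 libraries, and 19.3% and 8.46% in those of week 7, while its level was not called different. The shares depended on the length used. By the longest coding transcript, Tcf7 and Lef1 together held 16.9% and 35.5% at week 0. In the libraries of week 2 they held 53.7% and 53.4%, and in those of week 7 60.0% and 67.7%. With 2 libraries a week, an exact permutation test of such a share cannot give a two-sided p below 0.333. T and NK cells also express Tcf7 and Lef1, and their 4 markers summed to 1.33 to 1.60 CPM at week 0, 3.71 to 4.17 CPM at week 2 and 1.69 to 2.21 CPM at week 7, with 0 of 4 called in each comparison. Their part in these shares was not tested.

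Bcl9l, the paralogue of Bcl9, had 22.1 and 24.7 CPM at week 0, 36.8 and 39.1 CPM at week 2, and 54.5 and 38.5 CPM at week 7. It was 1.99-fold higher at week 7 than at week 0 (edgeR adjusted p = 0.00754), a call lost without week 0 replicate 1 (edgeR adjusted p = 0.0703). Its week 2 against week 0 call, 1.62-fold (edgeR adjusted p = 0.023), was lost without each week 0 or week 2 library. At week 2 against week 0 the folds were 1.60 for Bcl9 and 1.62 for Bcl9l, and at week 7 against week 0 they were 1.41 and 1.99. Per kilobase Bcl9l was 12.4 and 9.67 times as abundant as Bcl9 at week 0. These ratios were 11.5 and 10.5 at week 2, and 17.6 and 12.7 at week 7. By the longest coding transcript they ran from 8.25 to 15.1. Whether a paralogue changed more than its member was not tested for any of them.

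**Figure D3:**
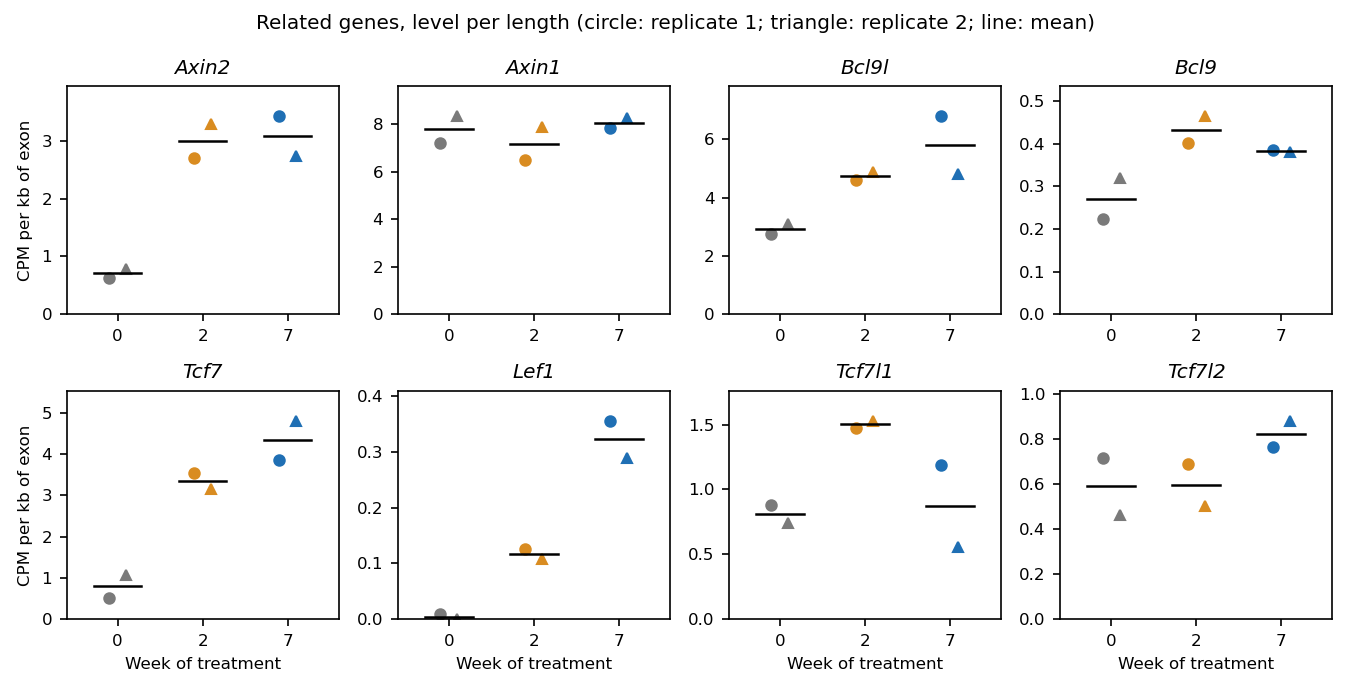
Levels in CPM per kilobase of annotated exon by week, for Axin1 and Axin2, for the 4 TCF/LEF genes, and for Bcl9 and Bcl9l. Circles are replicate 1, triangles replicate 2 and lines the means. Axin2, Tcf7 and Lef1 are low at week 0 and higher in all 4 later libraries, while Axin1 stays level.

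The list of other genes of the destruction machinery (other Axin, casein kinase, Gsk3, Btrc, phosphatase and ubiquitin ligase genes) held 24 genes, of which 23 were tested. At week 7 against week 0, 3 were called higher and 0 lower, against 7.58% and 6.23% of all tested genes, and the list's median log2 difference was 0.10. They were Axin2 and a pair of subunit genes of the phosphatase PP2A, Ppp2r1a at 1.23-fold and Ppp2r5e at 1.22-fold (edgeR adjusted p = 0.0482 and 0.0492), which lost their calls under 10 and 7 of 15 other settings. Week 2 differed from week 0 in 1 of them, again Axin2, and 0 were lower, against 9.81% and 8.81% of all tested genes. Higher at week 7 than at week 2 were 4 genes, Ppp2r5e (1.44-fold, edgeR adjusted p = 0.00212), Ppp2r1a, Ppp2r5d and Usp34, by 1.28-fold to 1.44-fold, and 0 were lower, against 10.1% and 9.73% of all tested genes. Ppp2r5e kept that call in every setting, and the calls of the other 3 were lost without 1 or more libraries, with an edgeR adjusted p of up to 0.156 for Ppp2r5d, 0.107 for Usp34 and 0.106 for Ppp2r1a. Usp34 is a deubiquitinase of Axin. The paralogue of Gsk3b, Gsk3a, had 56.9 and 51.3 CPM at week 7 and 48.9 and 50.3 CPM at week 0 (edgeR adjusted p = 0.361). Fbxw11, the paralogue of Btrc, had 39.2 and 47.7 CPM at week 7 and 38.1 and 41.3 CPM at week 0 (edgeR adjusted p = 0.490).

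Among the 19 partners of TCF and Bcl9, 5 were called higher at week 7 than at week 0 and 0 lower, against 7.58% and 6.23% of all tested genes. The list median was 0.19 on the log2 scale. Besides Lef1, Tcf7 and Bcl9l these were the Groucho co-repressors Tle1 (1.33-fold, edgeR adjusted p = 0.0103, but 0.0664 without week 0 replicate 2 and 0.0629 without week 7 replicate 1) and Tle2 (1.70-fold, edgeR adjusted p = 0.047, lost under 10 of 15 other settings). Of the same list, 4 were called higher at week 2 than at week 0 and 0 lower, against 9.81% and 8.81% of all tested genes. Beside Lef1, Tcf7 and Bcl9l this included Pygo1, a reader of histone H3 that binds Bcl9. It had 2.73 and 2.75 CPM at week 2 and 0.260 and 0.187 CPM at week 0 (edgeR adjusted p = 0.00123). The counts of Pygo1 were 13 and 9 at week 0 and 14 and 9 at week 7, about the floor of 12 counts, so no fold is given. Pygo1 had 0.259 and 0.176 CPM at week 7 and was lower there than at week 2 (edgeR adjusted p = 0.00116), the only one of the list that was. Higher at week 7 than at week 2 were 2 genes, against 10.1% of all tested genes. Ep300, a histone acetyltransferase, was 1.39-fold higher (edgeR adjusted p = 0.014, lost without week 2 replicate 1 or week 7 replicate 2, at up to 0.0950). Tle2 was 1.70-fold higher (edgeR adjusted p = 0.0355), a call lost without each week 7 or week 2 library, at up to 0.159, and with the replicate number as a block, at 0.0561.

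Of 8 tested genes on a list of 11 cadherin, catenin and linked genes, the partners of beta-catenin at the membrane, 4 were called higher at week 7 than at week 0 and 0 lower, against 7.58% and 6.23% of all tested genes. The other 4 were not called, and the list's median log2 difference was 0.26. Cdh1, E-cadherin, had 40.2 and 39.8 CPM at week 7 and 19.7 and 23.0 CPM at week 0 (1.87-fold, edgeR adjusted p = 0.000716). The others were Jup, the paralogue of beta-catenin (plakoglobin, 1.43-fold, edgeR adjusted p = 0.0105), Cdh2, N-cadherin (1.28-fold, edgeR adjusted p = 0.013), and Ctnnd1, p120-catenin (1.19-fold, edgeR adjusted p = 0.032, lost under 6 of 15 other settings). Without week 7 replicate 1 the calls of Jup and Cdh2 were also lost (edgeR adjusted p = 0.0599 and 0.0758), as they were without 1 week 0 library each (0.0618 and 0.0814). Ctnna1, alpha-catenin, had 99.1 and 95.2 CPM at week 7 and 91.5 and 90.8 CPM at week 0 and was not called (edgeR adjusted p = 0.350). Higher at week 2 than at week 0 were Jup and Cdh5, the cadherin of endothelial cells, by 1.37-fold and 1.36-fold, with edgeR adjusted p of up to 0.0902 and 0.0667 when libraries were left out. Vcl, vinculin, fell to 14.9 and 16.1 CPM at week 2, against 32.8 and 34.6 CPM at week 0 (edgeR adjusted p = 0.000138), and at week 7 it was higher than at week 2, with 34.5 and 29.5 CPM. Between weeks 7 and 2, 3 genes of the list were called higher (Cdh1, Cdh2 and Vcl) and 1 lower (Cdh5), against 10.1% and 9.73% of all tested genes.

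Of 21 receptor and Dishevelled genes, 17 were tested, and 5 were called higher at week 7 than at week 0 and 0 lower, against 7.58% and 6.23% of all tested genes. Lrp5, a Wnt co-receptor, had 60.3 and 58.6 CPM at week 7 and 36.1 and 38.0 CPM at week 0 (edgeR adjusted p = 0.000523). Rnf43, a ubiquitin ligase that removes Frizzled receptors, had 46.9 and 44.2 CPM at week 7 and 14.8 and 14.4 CPM at week 0 (3.12-fold, edgeR adjusted p = 0.00381). The receptor genes Fzd7 and Fzd8 were 1.67-fold and 1.78-fold higher (edgeR adjusted p = 0.00998 and 0.0139), and the other was Znrf3, the paralogue of Rnf43. Lrp5 kept its call without each library, while the other 4 calls were each lost without 2 or more libraries, one at a time, with edgeR adjusted p of up to 0.0576 for Rnf43, 0.0672 for Fzd7, 0.0881 for Fzd8 and 0.144 for Znrf3. Between weeks 2 and 0, 4 genes were called higher at week 2 and 2 lower, against 9.81% and 8.81% of all tested genes. Lrp5 was 1.43-fold higher (edgeR adjusted p = 0.00152). Fzd4 was 1.42-fold higher (edgeR adjusted p = 0.00953, lost without week 0 replicate 1 at 0.0515 and without week 2 replicate 2 at 0.0723). The calls of the other higher genes, Rnf43 and Fzd1, were lost under 9 and 4 of 15 other settings, at up to 0.197 and 0.0904. The lower genes were Fzd5, with 5.39 and 4.30 CPM at week 2 and 10.6 and 10.4 CPM at week 0 (edgeR adjusted p = 0.00206), and Dvl3, with 14.6 and 14.0 CPM at week 2 and 22.04 and 19.57 CPM at week 0 (edgeR adjusted p = 0.0135, and up to 0.0882 when libraries were left out). Between weeks 7 and 2, 3 were called higher at week 7 (Fzd5, Fzd8 and Rnf43) and 1 lower (Fzd4), against 10.1% and 9.73% of all tested genes, and Fzd5 alone kept its call in all 15 settings.

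The 11 Wnt target genes of liver were set beside the members. Like the members, they were chosen with earlier results of these data known, so they are no independent scale. At week 7 against week 0, 10 were called higher and 0 lower, against 7.58% and 6.23% of all tested genes, with a median log2 difference of 2.19, against 0.38 for the 10 members. Axin2 is counted on this list as well as on that of the destruction machinery. Glul, glutamine synthetase, and Slc1a2, a glutamate transporter, were 4.58-fold and 5.11-fold higher (edgeR adjusted p = 4.33e-09 and 2.57e-08), and Nkd1, a Wnt feedback inhibitor, and Rhbg, an ammonia transporter, were 13.7-fold and 7.14-fold higher. Week 2 brought 8 of the 11 higher than week 0 and 2 lower, Cyp1a2 and Cyp2e1, against 9.81% and 8.81% of all tested genes. Ctnnb1 was not called in that comparison. Higher at week 7 than at week 2 were 7 of the 11, and 0 were lower, against 10.1% and 9.73% of all tested genes.

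**Figure D4:**
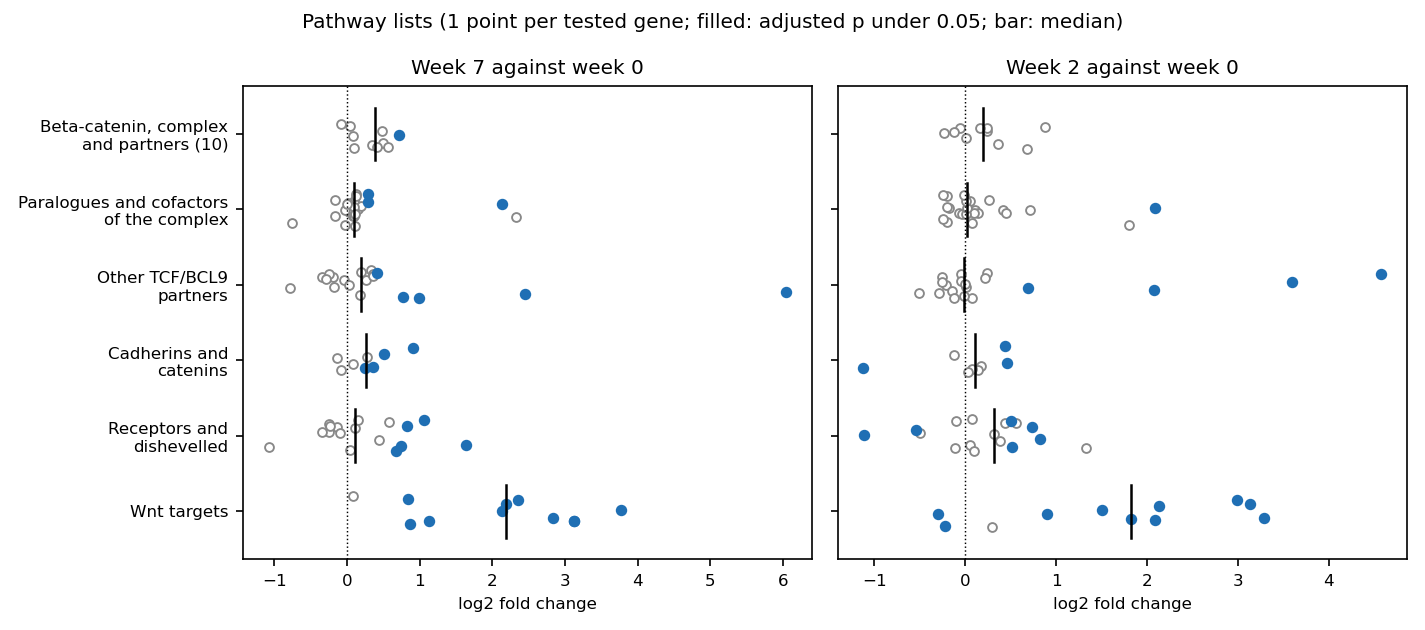
Log2 fold changes of every tested gene in the member list and the 5 pathway lists, for week 7 against week 0 and week 2 against week 0. Each point is a gene, filled where called at an adjusted p under 0.05, and bars are list medians. The point at 6.05 is Lef1, whose fitted value rests on week 0 counts under the floor. The members lie between -0.07 and 0.72 at week 7 against week 0, below most Wnt target genes, whose median is 2.19.

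The genes with a profile most like that of Ctnnb1 were sought among 8820 tested genes that averaged at least 5 CPM. Genes with Gm, Rik or other unusual symbols had been left out of that number. Likeness was the root mean square distance of log2 profiles over the 6 libraries, each centred on its own mean. The nearest was Lrp10, at a distance of 0.0389, with 31.4 and 30.2 CPM at week 0, 34.8 and 32.7 CPM at week 2, and 57.8 and 44.5 CPM at week 7. As with Ctnnb1, its week 7 replicate 1 lay above replicate 2. It was followed by Slc48a1 at 0.0766, Cgn at 0.0825, Odf2 at 0.0849 and Bckdk at 0.0850.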

How the data were processed

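Sample titles gave the groups and replicate numbers. Libraries were prepared from poly-A RNA with a TruSeq V2 kit and sequenced from both ends, per the labels' protocols. Bowtie 0.12.2 and mm8 are named, without a role, in the submitters' processing notes. What counted the reads, and on which gene models, was not given in the sources used here. Values are the authors' estimated counts for each Ensembl gene as deposited, unscaled. Rounding altered 0 values. About 4 deposited counts stand for a read pair, which is an assumption from steps in the low values; the floor is 12 counts (3 read pairs) and covers counting error only. The kit does not mark strand. Symbols come from GENCODE M21 (54409 of 54446 identifiers matched).

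Counts were fitted in R 4.3.3 with edgeR 4.0.16: filterByExpr (15368 genes kept), TMM, a robust quasi-likelihood fit to the 6 libraries with a coefficient for each week (3 residual degrees of freedom; biological coefficient of variation 0.209), 2-sided tests, Benjamini-Hochberg adjustment over all tested genes and a threshold of 0.05. Intervals are 95% from the fit. The fits were tested on simulated data. Folds are ratios of mean CPM. Alternatives used median-of-ratios scaling, total counts only, no filter, DESeq2 1.42.0, limma 3.58.1 voom, only the 4 libraries compared, counts divided by 4, a replicate block, each library left out, and an adjusted p under 0.01. Python 3.11.15, pandas 2.3.3 and matplotlib 3.10.9 made tables and figures.

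The members and lists were chosen with earlier results of these data known. The members are named whatever their result, and from each pathway list and comparison up to 4 called genes by adjusted p. Tle2, Znrf3, Rnf43 and Fzd1 at week 2, Gsk3a, Fbxw11, Ctnna1 and Sp5 fall outside this rule and were chosen after their values were seen. For those called genes, settings were rerun after the data were seen.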

Additional observations from a re-analysis of the deposited data

How the results depend on the processing

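Ctnnb1 stayed called at week 7 against week 0 in every alternative, with log2 differences from 0.57 to 0.87 and adjusted p from 7.14e-09 to 0.0410. The number of members called at week 7 against week 0 was 2 in place of 1 with total counts only, without the filter, with DESeq2 and with counts divided by 4, each adding Btrc, and 1 without each library in turn. At week 2 against week 0 it was 1 in place of 0, Tcf7l1, with only the 4 libraries compared, and 0 to 1 with each library left out. At week 7 against week 2 it was 0 in place of 1 at an adjusted p under 0.01, and 0 to 2 with each library left out. For any difference over the weeks it was 1 to 2 with each library left out, the second being Tcf7l1 without week 7 replicate 1. Over all genes, an adjusted p under 0.01 called 1008 at week 7 against week 0, 1574 at week 2 against week 0, 1632 at week 7 against week 2 and 2194 over the weeks. Leaving out a library called 1298 to 1856, 1801 to 2752, 1842 to 2961 and 2770 to 3487 in these comparisons, against 2123, 2862, 3040 and 4064 in all libraries; a smaller fit is part of that construction. Total counts only called 2007 higher and 913 lower at week 2 against week 0, against 1508 and 1354.

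Same-numbered libraries did not deviate together (correlations -0.0234, -0.0627 and -0.120 over 9170 genes). With 2 libraries a week this cannot show whether the numbers pair samples, and the main fit used no pairing. A replicate block called 1702, 2436 and 2620 genes in the 3 comparisons and 3488 over the weeks, and 1, 0, 1 and 1 members.

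Directions turned round for uncalled members only, and the cause was not tested. With total counts only Apc at week 2 against week 0 was 0.0350 on the log2 scale. With each library left out, the log2 difference at week 7 against week 0 ran from -0.35 to 0.16 for Apc, -0.0554 to 0.16 for Axin1, -0.49 to 1.16 for Gsk3b, -0.0603 to 0.26 for Csnk1a1 and -0.56 to 0.55 for Tcf7l1. At week 2 against week 0 it ran from -0.26 to 0.0140 for Axin1, -1.02 to 0.57 for Gsk3b, -0.16 to 0.75 for Amer1 and -0.26 to 0.36 for Tcf7l2. At week 7 against week 2 it ran from -0.30 to 0.22 for Apc, -0.25 to 1.37 for Gsk3b and -0.33 to 0.57 for Amer1. Of the called pathway genes that are no members, 14 of 26 at week 7 against week 0, 14 of 23 at week 2 against week 0 and 11 of 22 at week 7 against week 2 kept their calls in all settings. Bcl9 and Tcf7l1 had 94 to 356 counts per library; the part of depth in their missing calls was not tested.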

Other observations

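The replicate gap of Gsk3b was shared by few genes. Among the 7368 genes that averaged 10 CPM or more, 10 (0.136%) had replicates more than 2-fold apart in every week, and Gsk3b was among them. This list was made after the values of Gsk3b were seen, and the cause of the gaps was not tested. The other 9 were March8, Pex26, Ptms, Apoc2, Insr, Slc19a2, Hgs, Bola1 and Fam107b. Insr, the insulin receptor, had 27.8 and 66.3 CPM at week 0, 23.5 and 68.5 CPM at week 2, and 40.0 and 88.3 CPM at week 7. Ptms, parathymosin, had 371 and 800.4 CPM at week 0, 335 and 829 CPM at week 2, and 833 and 406 CPM at week 7. The library with the lower value differed between genes: in week 7 replicate 1 Gsk3b, Insr, Pex26, Apoc2 and Bola1 were the lower, and Ptms, March8, Hgs, Slc19a2 and Fam107b the higher.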
